A study of Mus musculus with 9 samples.

Results

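The snoRNA host genes described here are Gas5, Snhg1, Snhg3, Snhg5, Snhg6, Snhg8, Snhg11 and Snhg12, 8 of the 43808 genes counted in RNA-seq of newborn mouse inner ear hair cells (HCs). They were chosen by name as genes whose introns carry small nucleolar RNAs (snoRNAs) and selected on their CPM (counts scaled to library size) across the genotypes of these same libraries, so that their differences between genotypes are given as a description and without a p-value. The RNA came from cochlear and vestibular HCs of P1 mice, sorted as cells positive for both the Atoh1/nGFP reporter and CD326, with 1 library per mouse. The genotypes were Mir96Dmdo homozygous mutant (Mir96Dmdo/Dmdo), heterozygous (Mir96+/Dmdo) and wild-type (Mir96+/+), with n = 3 mice each, and all mice carried Atoh1/nGFP, a transgene in which an Atoh1 enhancer drives nuclear GFP in HCs. Dmdo is a single-base change in the seed of miR-96, a microRNA of HCs, and was brought from a C3HeB/FeJ line into a cross with C57BL6 mice, so that the genotypes share a mixed background. Libraries are named here by genotype and mouse number, which were 43, 46 and 47 for homozygous mutants, 45, 48 and 51 for heterozygotes and 44, 55 and 59 for wild-type mice.

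A snoRNA host gene is transcribed as one precursor whose introns hold snoRNAs. After splicing, the introns are trimmed to the mature snoRNAs, which guide the chemical modification of ribosomal RNA. The C/D box class directs ribose methylation and the H/ACA box class directs pseudouridylation. Some hosts encode ribosomal proteins or translation factors, whereas the hosts described here are known mainly as non-coding genes, whose spliced exons are often removed by nonsense-mediated decay (NMD). Many hosts of both kinds start transcription at a 5′ terminal oligopyrimidine (TOP) tract, a short run of C and T that ties translation to growth signals, and Gas5 (growth arrest-specific 5) was named for its accumulation in growth-arrested cells.

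Promoter sequence was matched in RefSeq (build GRCm38.p6) for 7 of the 8 genes, with 2 start sites for Gas5 and no entry for Snhg6. The promoters are shown because they carry the pyrimidine tract by which such hosts are usually recognised, a feature that played no part in choosing the genes. A C followed by at least 4 C or T, beginning within 10 bases of the annotated start on the gene's strand, was found in 5 of the 8 promoters (5 of the 7 genes), against 29.0% of 32851 promoters of all genes. TATAAA or TATATA beginning 15 to 45 bases before the start was found in 4 of the 8 promoters (of Gas5, Snhg5, Snhg8 and Snhg12), against 3.13% of all promoters, a motif that was picked after the sequences had been seen. TGACGTCA, the palindromic CRE motif, was found anywhere in the promoter window for 1 of the 8 (of Gas5) and for 1.79% of all promoters. CACGTG, the palindromic E-box bound by Myc proteins, was found in 0 of the 8 and in 7.15% of all promoters. The 4 promoters with both a tract and a TATA motif follow from 75 bases before to 25 bases after the start, with TATA, tract and CRE letters in capitals.
Gas5 promoter, chr1:161035091-161035190, plus strand: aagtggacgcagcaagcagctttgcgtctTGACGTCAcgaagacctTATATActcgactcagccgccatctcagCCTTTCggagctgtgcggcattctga
Snhg12 promoter, chr4:132308603-132308702, plus strand: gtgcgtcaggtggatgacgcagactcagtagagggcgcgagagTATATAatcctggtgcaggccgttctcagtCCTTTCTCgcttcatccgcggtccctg
Snhg8 promoter, chr3:123508312-123508411, minus strand: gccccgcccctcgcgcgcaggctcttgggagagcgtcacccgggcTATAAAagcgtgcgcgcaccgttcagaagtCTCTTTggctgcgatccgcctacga
Snhg5 promoter, chr9:88522873-88522972, minus strand: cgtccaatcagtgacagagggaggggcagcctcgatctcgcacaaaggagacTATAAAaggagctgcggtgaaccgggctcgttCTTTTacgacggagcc
The tract of Snhg12 was the longest of these, with 8 bases, against 6 in Gas5 and Snhg8 and 5 in Snhg5.

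The GENCODE M21 annotation (GRCm38) placed 31 snoRNA genes inside the 8 hosts. Gas5 held 10 of them, Snhg1 held 8, Snhg12 held 5, Snhg3, Snhg5 and Snhg11 held 2 each, and Snhg6 and Snhg8 held 1 each. These are annotation entries, and Snord80 in Gas5 and Snora16a in Snhg12 have 2 overlapping entries each. Of the 31 entries, 6 are shown, from 6 of the hosts, as the small RNAs the genes are named for. Entries that carry the box letters marked below were preferred, and Gm25187 of Snhg11, which has none marked, is not shown. Capitals mark the C box (TGATGA) and D box (CTGA) of C/D snoRNAs, which were both present at the ends of 69.4% of 98 mouse snoRNAs named Snord, or the ACA box of H/ACA snoRNAs, present 3 bases before the end in 83.3% of 42 named Snora.
Snord80 in Gas5, chr1:161037601-161037681, plus strand: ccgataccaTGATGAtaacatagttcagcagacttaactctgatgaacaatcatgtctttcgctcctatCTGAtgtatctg
Gm25855 in Snhg1, chr19:8723993-8724064, plus strand: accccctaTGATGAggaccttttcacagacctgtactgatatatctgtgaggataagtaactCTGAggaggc
Snord50b in Snhg5, chr9:88521797-88521868, minus strand: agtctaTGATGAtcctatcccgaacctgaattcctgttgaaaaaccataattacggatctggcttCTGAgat
Snord87 in Snhg6, chr1:9942463-9942549, minus strand: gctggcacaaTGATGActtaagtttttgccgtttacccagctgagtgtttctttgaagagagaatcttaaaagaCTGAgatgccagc
Snora24 in Snhg8, chr3:123507937-123508066, minus strand: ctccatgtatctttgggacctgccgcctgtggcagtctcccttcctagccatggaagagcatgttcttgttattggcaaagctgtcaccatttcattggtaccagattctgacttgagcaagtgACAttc
Snora16a in Snhg12, chr4:132309464-132309600, plus strand: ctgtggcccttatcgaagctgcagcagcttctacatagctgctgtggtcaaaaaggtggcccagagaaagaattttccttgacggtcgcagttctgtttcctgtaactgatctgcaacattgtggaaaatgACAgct

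The hosts are small genes spread over 6 chromosomes. Gas5 lies at chr1:161034422-161038539 on the plus strand and Snhg6 at chr1:9941959-9944118 on the minus strand. Snhg12 (chr4:132308623-132311024, plus strand) and Snhg3 (chr4:132348014-132353686, minus strand) are near neighbours. Snhg1 lies at chr19:8723475-8726443 (plus strand), Snhg5 at chr9:88521050-88522929 (minus strand), Snhg8 at chr3:123507552-123508404 (minus strand) and Snhg11 at chr2:158375638-158386145 (plus strand). GENCODE lists Snhg11 as protein-coding and the other 7 as processed transcripts or lincRNAs. Their annotated exons include transcripts that retain introns, 20 of 25 in Gas5 and 14 of 18 in Snhg1, and merged exon models cover 3760 of 4118 bases in Gas5 but 986 of 5673 bases in Snhg3. Of the 31 snoRNA entries, 28 overlap host exons.

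Library totals were 18175317 to 30932531 reads in homozygous mutants, 29470207 to 34873964 in heterozygotes and 19677015 to 28486252 in wild-type mice. Replicates were far apart for libraries of one genotype, with correlations of log2 CPM (counts of a gene scaled to the total of its library, on the usual CPM scale) of 0.77 to 0.85 over the 9 replicate pairs, and an earlier analysis of these data had found homozygous mutant 46 and wild-type 59 to stand apart. Summed markers of HCs were high in every library, at 13515 to 17378 CPM in homozygous mutants, 16273 to 19636 CPM in heterozygotes and 17351 to 18895 CPM in wild-type mice, and 1 of the 12 (Espn, an actin bundler of stereocilia) was called lower in homozygous mutants. Summed markers of other cell types were lower. The 12 supporting cell markers were the highest of them. They had 2254 to 3014 CPM in homozygous mutants, 2566 to 3988 CPM in heterozygotes and 2163 to 4425 CPM in wild-type mice. All 5 red blood cell genes were at 0 everywhere. The 7 glial markers had 309 to 461 CPM in homozygous mutants, 223 to 331 CPM in heterozygotes and 127 to 299.9 CPM in wild-type mice. The 8 mesenchymal markers had 903 CPM in homozygous mutant 46 and 133 and 208 CPM in the other homozygous mutants, against 131 to 263 CPM in wild-type mice. By the study's methods, a single wild-type sample and a single homozygous mutant sample had lower RNA integrity than the rest, without saying which mice they were. The part of these cell types in the values of the host genes was not tested, and in bulk RNA a change in the mix of sorted cells and a change of RNA within HCs cannot be told apart.

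Gas5 had the highest mean CPM of the 8 in homozygous mutants and heterozygotes, and Snhg8 in wild-type mice. Gas5 had 199, 155 and 273 CPM in homozygous mutants 43, 46 and 47, against 132, 121 and 118 CPM in heterozygotes 45, 48 and 51 and 58.0, 103 and 89.5 CPM in wild-type mice 44, 55 and 59. Every homozygous mutant library lay above every heterozygous library, and every heterozygous library above every wild-type library. The genotype means were 209 ± 59.5, 124 ± 7.34 and 83.7 ± 23.3 CPM for homozygous mutant, heterozygous and wild-type HCs (SD, n = 3 each). The fitted log2 fold change was 1.23 (SE 0.30) for homozygous mutants against wild-type, 0.76 (SE 0.30) for homozygous mutants against heterozygotes and 0.47 (SE 0.30) for heterozygotes against wild-type. Gas5 also had the tightest replicates of the 8, with a within-genotype SD of 0.35 on the log2 CPM scale, against a median of 0.73 over the 15184 genes tested.

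Snhg1, host of a run of C/D box snoRNAs, had the same order of genotypes. It had 29.9, 43.96 and 35.7 CPM in homozygous mutants, against 28.7, 19.1 and 29.2 CPM in heterozygotes and 15.9, 9.41 and 5.39 CPM in wild-type mice. The 3 genotypes did not overlap, although the gap between the lowest homozygous mutant and the highest heterozygote was under 1 CPM. The log2 fold change was 1.77 (SE 0.61) for homozygous mutants against wild-type, 0.52 (SE 0.59) for homozygous mutants against heterozygotes and 1.24 (SE 0.60) for heterozygotes against wild-type. The order of every homozygous mutant above every heterozygous and every heterozygous above every wild-type library was met by 50 genes of those tested (0.329%), Gas5 and Snhg1 among them.

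Snhg3, host of the H/ACA snoRNAs Snora73a and Snora73b, was a low gene. It had 8.60, 5.23 and 12.6 CPM in homozygous mutants, against 9.60, 8.20 and 5.42 CPM in heterozygotes and 2.14, 5.02 and 0.254 CPM in wild-type mice. Wild-type 59 stood far below the others, with 5 reads, and the lowest homozygous mutant was just above the highest wild-type library. The log2 fold change of 1.76 for homozygous mutants against wild-type had an SE of 1.45, and it was 1.23 without wild-type 59 and 2.80 without wild-type 55. Snhg3 shares 135 exon bases with Rcc1, the nucleotide exchange factor of Ran on the same strand. Depending on the counting mode, which is not named, reads there may have been counted for neither gene. Snhg3 also shares 705 exon bases with Gm17300 on the opposite strand, and whether reads there were separated by strand is not stated.

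Snhg5, host of Snord50a and Snord50b, had 53.8, 15.96 and 54.1 CPM in homozygous mutants, against 29.9, 40.8 and 22.5 CPM in heterozygotes and 28.2, 22.0 and 21.2 CPM in wild-type mice. Homozygous mutants 43 and 47 lay above all other libraries and homozygous mutant 46 below all of them. The log2 fold change for homozygous mutants against wild-type was 0.70 (SE 0.53), and 1.11 without homozygous mutant 46.

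Snhg12, host of Snora16a, Snora44, Snora61 and Snord99, had 32.2, 21.7 and 17.2 CPM in homozygous mutants, against 35.4, 13.7 and 16.9 CPM in heterozygotes and 23.8, 19.7 and 4.01 CPM in wild-type mice. The genotypes overlapped, and the lowest value, in wild-type 59, rested on 79 reads. The log2 fold change for homozygous mutants against wild-type was 0.51 (SE 0.72), and 0.06 without wild-type 59.

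Snhg8, host of Snora24, had 193, 127 and 113 CPM in homozygous mutants, against 119, 59.6 and 87.4 CPM in heterozygotes and 177, 68.3 and 60.4 CPM in wild-type mice. Wild-type 44 was the second highest library, and the genotypes overlapped. The 5 mice numbered 47 or lower, which are all 3 homozygous mutants with heterozygote 45 and wild-type 44, were above 110 CPM, and the 4 mice numbered 48 or higher were below 90 CPM. The log2 fold change for homozygous mutants against wild-type was 0.42 (SE 0.38), 1.07 without wild-type 44 and -0.13 in a fit with a term for mouse numbers up to 47. What the mouse numbers stand for is unknown here.

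Snhg6, host of Snord87, had 19.3, 1.43 and 12.4 CPM in homozygous mutants, against 11.8, 8.89 and 16.3 CPM in heterozygotes and 11.3, 8.60 and 15.2 CPM in wild-type mice. Homozygous mutant 46, with 26 reads, lay far below the heterozygous and wild-type libraries, and homozygous mutant 43 lay above them. For Snhg6 the fitted log2 fold change was -0.19 (SE 0.99) for homozygous mutants against wild-type, 0.35 without homozygous mutant 46 and -0.81 without homozygous mutant 43.

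Snhg11, the member that GENCODE lists as protein-coding and a transcript known from brain neurons, had 5.18, 12.8 and 31.0 CPM in homozygous mutants, against 20.2, 20.7 and 24.4 CPM in heterozygotes and 17.3, 18.2 and 18.3 CPM in wild-type mice. The heterozygous libraries all lay above the wild-type libraries by a small margin, whereas the homozygous mutants spread to both sides of them. The log2 fold change for homozygous mutants against wild-type was -0.22 (SE 0.72), 0.25 without homozygous mutant 43 and -1.07 without homozygous mutant 47. The 7 neuronal markers that were tested, out of 10 listed, gave no call, and the summed level of the 10 was 461 to 545 CPM in homozygous mutants, 400 to 606 CPM in heterozygotes and 451 to 541 CPM in wild-type mice.

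**Figure D1:**
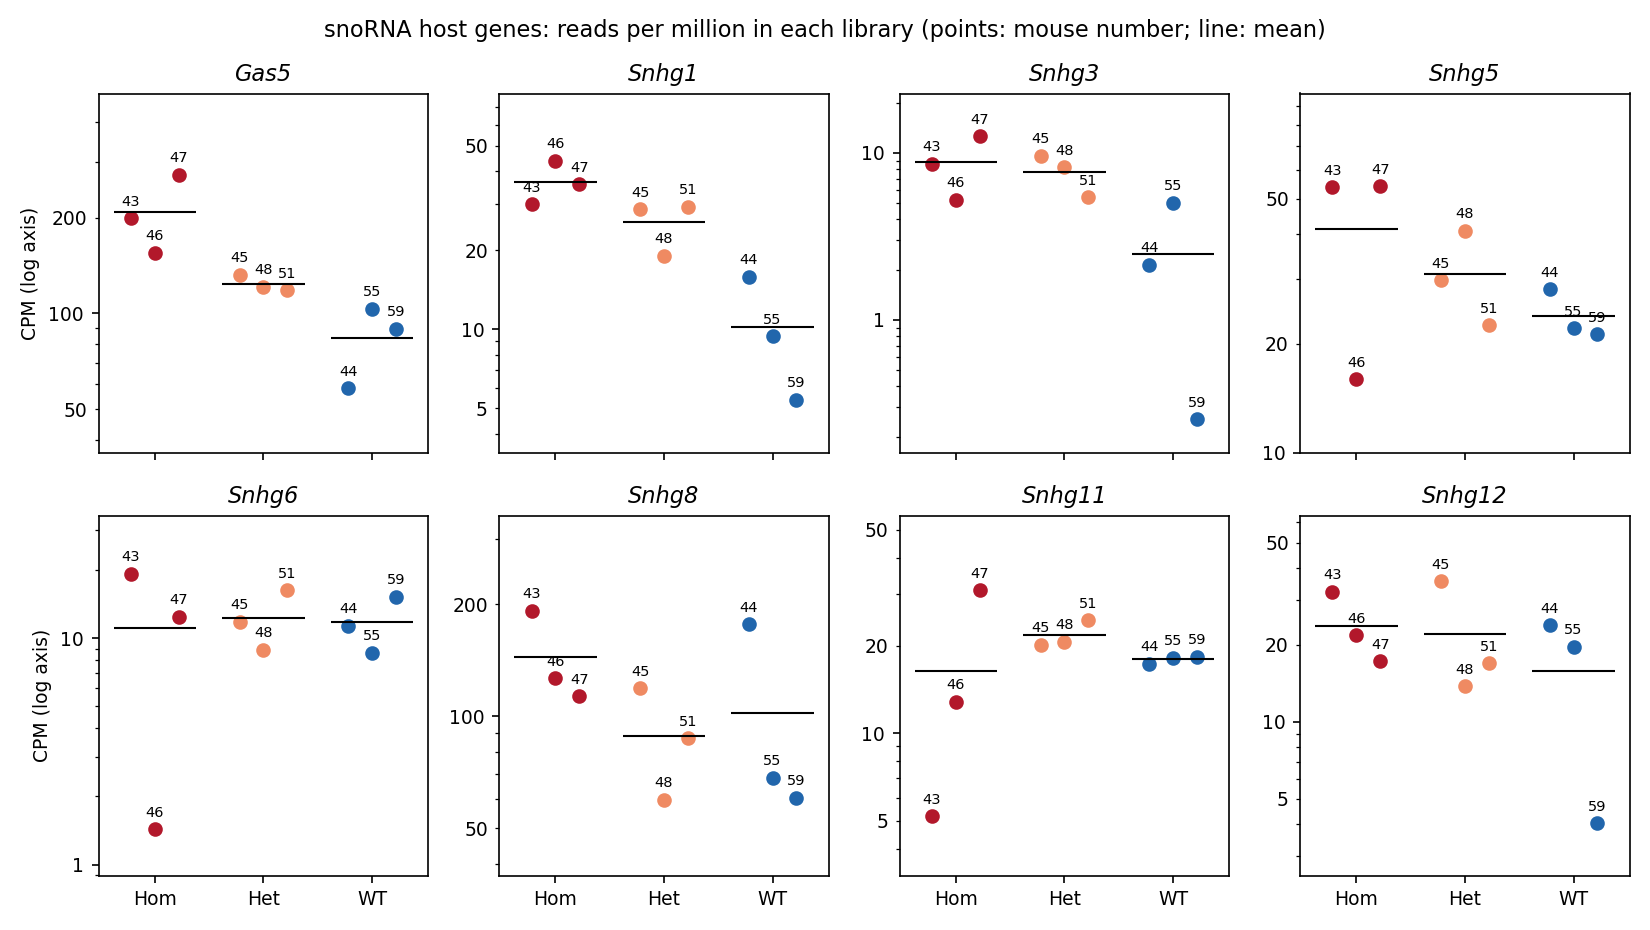
CPM of each host gene in each library on a log axis, with homozygous mutant (Hom), heterozygous (Het) and wild-type (WT) HCs from left to right. Each point is 1 mouse with its number and each line is the mean of 3. Gas5 and Snhg1 step down from Hom to Het to WT with no overlap, and single low points stand apart in Snhg3 (WT 59), Snhg6 (Hom 46), Snhg11 (Hom 43) and Snhg12 (WT 59).

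As a group, the 8 hosts took 540, 383 and 549 CPM in homozygous mutants, against 386, 292 and 320 CPM in heterozygotes and 334, 255 and 214 CPM in wild-type mice, and the lowest homozygous mutant was below the highest heterozygote. The means were 491 ± 93.6, 333 ± 48.5 and 268 ± 60.6 CPM (SD, n = 3 each). Gas5 and Snhg8 together made 61.9% to 73.6% of these reads in every library, so the sum mainly follows them. The other 6 hosts summed to 149, 101 and 163 CPM in homozygous mutants, against 136, 111 and 115 CPM in heterozygotes and 98.7, 82.9 and 64.4 CPM in wild-type mice.

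All 8 hosts passed the filter of at least 20 reads in at least 2 of 3 libraries of a genotype. A gene was called at an FDR of 10% and a fold change above 1.5 in edgeR's quasi-likelihood test across all genes. For homozygous mutants against wild-type, 1 of the 8 (Gas5) was called, where 1.15% of all genes tested were called, 0.237% of them higher. Values of 3 hosts (Gas5, Snhg1 and Snhg3) were higher in every homozygous mutant than in every wild-type library, as were those of 9.15% of all genes, and 0 hosts were lower in every homozygous mutant library, as 7.72% of all genes were. The median log2 fold change of the 8 was 0.61, with 6 above 0, beside a median of -0.02 over all genes. Because the genes were chosen with this contrast known, nothing further is read from these counts.

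For heterozygotes against wild-type, 0 of the 8 hosts were called by edgeR, where 0.0% of all genes were, and 686 genes in all had an unadjusted p under 0.05. DESeq2 and limma-voom also called 0 of the hosts, with 45 calls and 1 call over all genes. Gas5, Snhg1, Snhg3 and Snhg11 were higher in every heterozygous than in every wild-type library, a pattern of 6.78% of all genes, and 0 hosts were lower throughout, beside 4.11% of all genes. The median log2 fold change was 0.35, with 6 hosts above 0, beside -0.03 over all genes. For homozygous mutants against heterozygotes, 0 of the 8 were called, where 0.00659% of all genes were (1 gene). An unadjusted p under 0.05 was reached by 1030 of all genes, and DESeq2 and limma-voom called 0 of the 8. Gas5 and Snhg1 did not overlap, as 6.65% of all genes did not in this direction (0 hosts and 7.44% of all genes in the other), and the median log2 fold change was 0.30. The 3 contrasts share libraries and are not independent of each other, and the genes were chosen with all of them known.

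**Figure D2:**
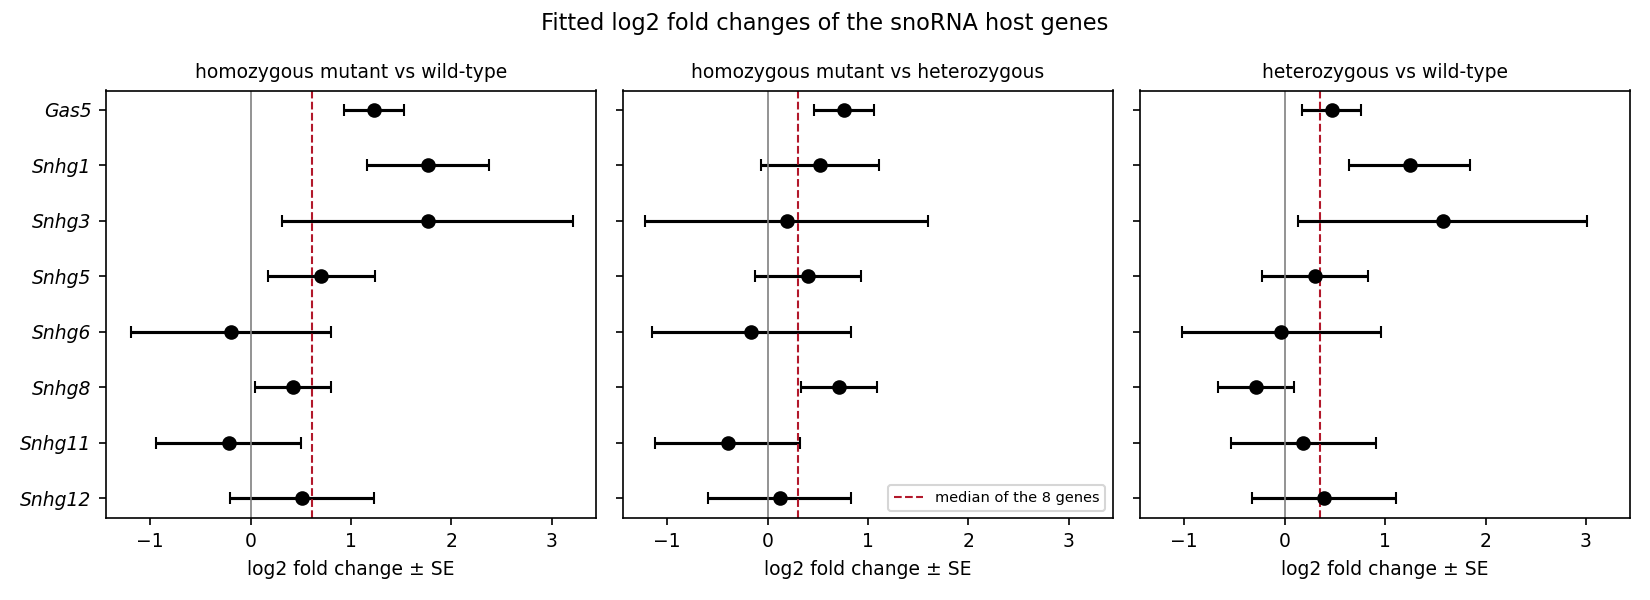
Log2 fold changes (points) with standard errors (bars) of the 8 host genes in the 3 contrasts, from the edgeR fit to all 9 libraries. The dashed line is the median of the 8 genes, at 0.61, 0.30 and 0.35 from left to right. Gas5 has the shortest bars and Snhg3 the longest.

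The fold change of Gas5 kept its sign in each of 18 alternatives, but its call did not hold throughout. Over fits that left out 1 library at a time, its log2 fold change for homozygous mutants against wild-type ran from 0.99 to 1.42, and it was 1.46 with the mouse number term. The call was lost without homozygous mutant 43, homozygous mutant 47, heterozygote 51, wild-type 55 or wild-type 59, without both libraries that stand apart, in the fit of the 2 genotypes alone, and with the mouse number term, where the number of genes called fell to between 20 and 110. Snhg1, Snhg3 and Snhg5 also kept a positive sign for homozygous mutants against wild-type in each alternative, with leave-one-out ranges of 1.48 to 2.23, 1.23 to 2.80 and 0.46 to 1.11, and Snhg1 was called with DESeq2 and without wild-type 44, settings in which 6.36% and 4.66% of all genes were called. The signs of Snhg6, Snhg8, Snhg11 and Snhg12 turned in at least 1 alternative each.

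**Figure D3:**
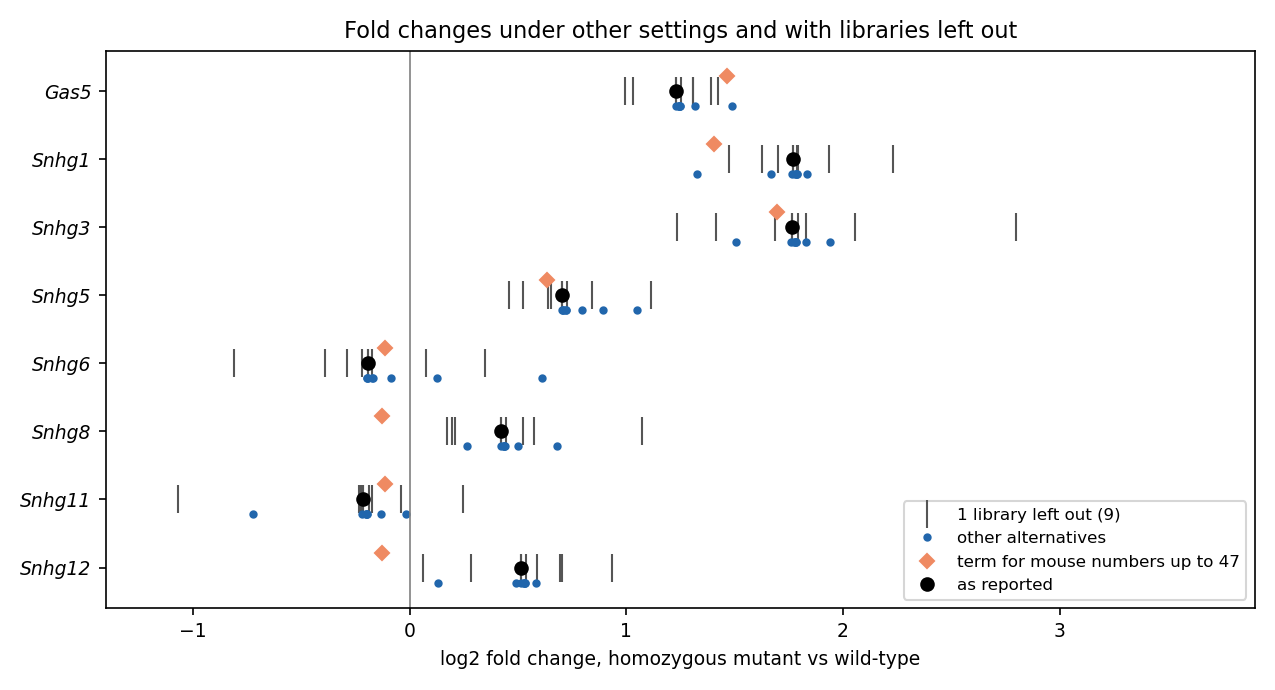
Log2 fold change of each host gene for homozygous mutants against wild-type as reported (black), with each of the 9 libraries left out in turn (grey bars), with a term for mouse numbers up to 47 (orange) and under the other alternatives (blue). Gas5, Snhg1, Snhg3 and Snhg5 stay right of 0 throughout, whereas Snhg6, Snhg8, Snhg11 and Snhg12 have points on both sides.

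Levels between genes were compared per kb of exon. Per kb of all annotated exons, Snhg8 was first in homozygous mutants with 169 ± 49.9 CPM per kb, followed by Gas5 with 55.5 ± 15.8 and Snhg5 with 23.9 ± 12.7 (SD, n = 3). Snhg11 was last with 1.92 ± 1.56 CPM per kb. These 3 hosts led in the same order and Snhg11 was last also in heterozygotes and wild-type mice. From Snhg5 down, the range of mean ± SD of each gene overlapped that of the next lower gene. The exception was Snhg3 and Snhg11 in homozygous mutants and heterozygotes. The exon length of Snhg3 includes the bases shared with Rcc1 and Gm17300, where reads may not have been counted, so its level per kb may be too low. The length matters for the order, because the retained introns of Gas5 and Snhg1 enlarge their exon models. Per kb of the median transcript without retained introns, a length chosen after the data had been seen, Gas5 was first with 416 ± 118 CPM per kb in homozygous mutants and 246 ± 14.6 in heterozygotes, ahead of Snhg8, and second to Snhg8 in wild-type mice (167 ± 46.4 against 209 ± 133).

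**Figure D4:**
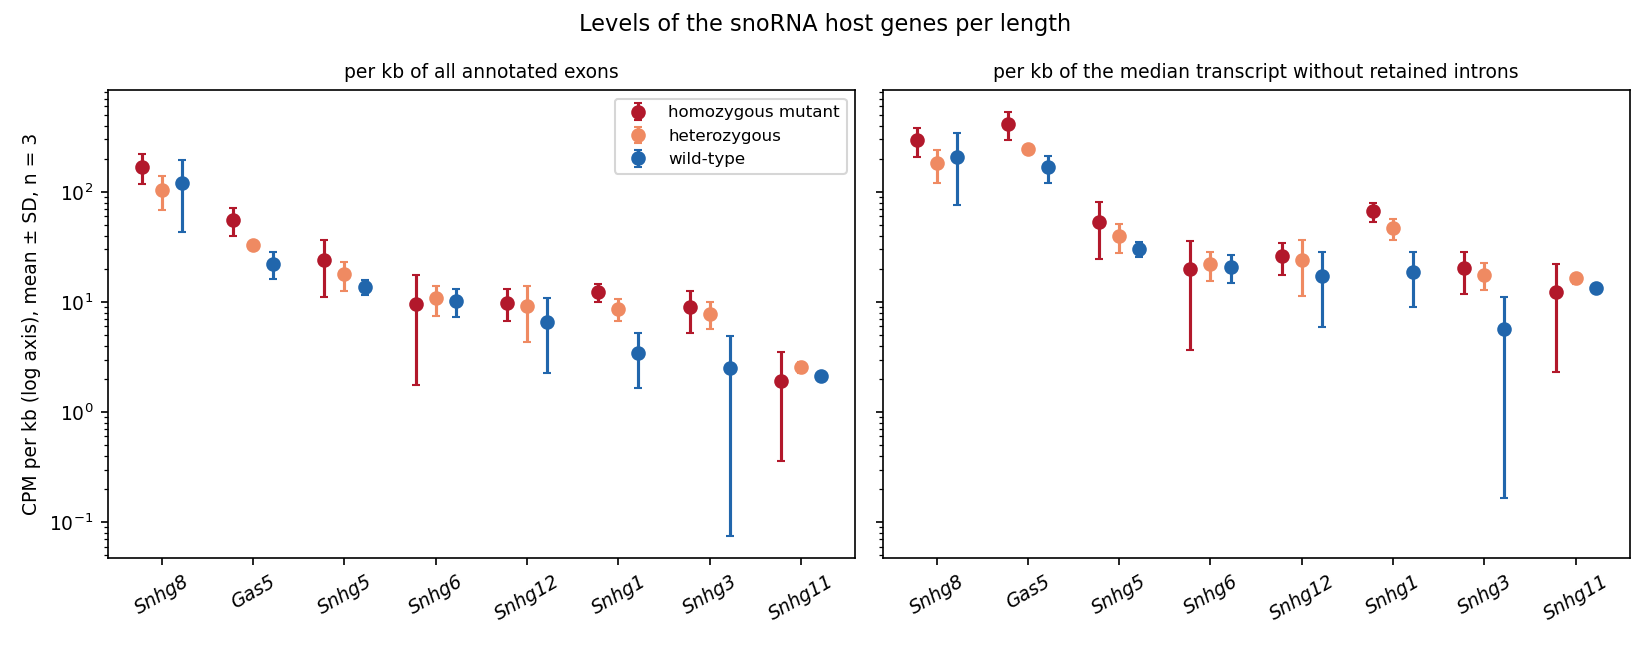
Mean CPM per kb (log axis) with SD over 3 libraries for each host gene, as homozygous mutant, heterozygous and wild-type from left to right within a gene. The left panel divides by the length of all annotated exons and the right panel by the median transcript length without retained introns. Snhg8 leads on the left and Gas5 leads on the right in homozygous mutants and heterozygotes.

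Few reads were counted for the snoRNAs themselves. Of the 31 annotation entries inside the hosts, 27 were in the count tables and 25 of these had 0 reads in all 9 libraries. The other two were both in Snhg3. Snora73b, which lies in no Snhg3 exon, had 136, 2 and 43 reads in homozygous mutants, against 136, 152 and 6 reads in heterozygotes and 3, 50 and 204 reads in wild-type mice. It was not called, and its reads varied as much within each genotype as between genotypes. Snora73a had 46 reads in all, 45 of them in heterozygote 48. Reads that fall on 2 genes are counted for neither in the default mode of HTSeq, and the sources used here do not name the mode, so that a count of 0 for a snoRNA inside a host exon sets no limit on its level. Snord87 in Snhg6 and Gm25129 in Snhg11 lie in no host exon and also had 0 reads. The libraries were not made for small RNA, and the paper describes a bead size selection before PCR, so those counts set no limit either.

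Other host genes were compared as lists that were not used to choose the 8. The lists were themselves chosen with earlier results of these data known. Of 17 other non-coding hosts listed, 10 were tested and 0 were called for homozygous mutants against wild-type by edgeR, with 2 higher at an unadjusted p under 0.05, and DESeq2 and limma-voom called 1 each, where they called 6.36% and 2.23% of all genes. Their median log2 fold change was 1.02, with 8 of 10 above 0, beside 49.1% of all genes. This median was 0.69 with the mouse number term and 0.58 without both libraries that stand apart. It was 0.74 without homozygous mutant 46 and 1.34 without wild-type 44. Of the 10, 4 were higher in every homozygous mutant than in every wild-type library, beside 9.15% of all genes. Against heterozygotes the median was 1.07 with 9 of 10 above 0, and for heterozygotes against wild-type it was -0.12 with 5 of 10 above 0, and 0.38 without wild-type 44. The host 2410006H16Rik averaged 111 ± 27.6 CPM in homozygous mutants and 47.9 ± 19.1 CPM in wild-type mice (log2 fold change 1.13, SE 0.37, edgeR adjusted p = 0.193). Zfas1 averaged 107 ± 31.5 CPM in homozygous mutants and 40.4 ± 40.2 CPM in wild-type mice (1.34, SE 0.57, edgeR adjusted p = 0.328). Snhg17 had 32.4 ± 13.9 CPM in homozygous mutants and 55.4 ± 29.1 CPM in wild-type mice (-0.87, SE 0.51, edgeR adjusted p = 0.489). Homozygous mutant 46, the library with the high mesenchymal markers, had the highest level of the 9 for Snhg16 (92.9 CPM), Snhg18 (33.3 CPM), Snhg20 (59.9 CPM) and 1110038B12Rik (76.1 CPM), a pattern noticed after the values had been seen.

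Of 38 protein-coding hosts listed, 37 were tested, most of them genes of ribosomal proteins and translation factors. For homozygous mutants against wild-type, 0 were called by edgeR, 11 were higher and 0 lower at an unadjusted p under 0.05, which 1991 of all 15184 genes reached in either direction. DESeq2 called 4 and limma-voom 8, all higher, where these tools called 6.36% and 2.23% of all genes in either direction. Their median log2 fold change was 0.68, with 32 of 37 above 0, beside 49.1% of all genes, and 14 higher in every homozygous mutant than in every wild-type library, beside 9.15% of all genes. With the mouse number term this median was 0.33. The median was 0.53 for homozygous mutants against heterozygotes, and 0.19 with the mouse number term, and it was 0.14 for heterozygotes against wild-type, and -0.04 without wild-type 55. Rps3, a protein of the small ribosomal subunit, averaged 1439 ± 90.9 CPM in homozygous mutants and 773 ± 387 CPM in wild-type mice (log2 fold change 0.82, SE 0.28, edgeR adjusted p = 0.221). Rack1, a scaffold on the same subunit, averaged 1301 ± 105 CPM in homozygous mutants and 723 ± 396 CPM in wild-type mice (0.77, SE 0.29, edgeR adjusted p = 0.263). Eef2, the elongation factor that moves the ribosome along, averaged 4569 ± 343 CPM in homozygous mutants and 3269 ± 695 CPM in wild-type mice (0.40, SE 0.21, edgeR adjusted p = 0.419).

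Genes that act on hosts and snoRNAs were counted in the same way. For homozygous mutants against wild-type, 0 of 18 snoRNP core and assembly genes were called by edgeR, with 0 higher and 1 lower at an unadjusted p under 0.05. Over all 15184 genes tested in this contrast, edgeR called 1.15%, DESeq2 6.36% and limma-voom 2.23%. An unadjusted p under 0.05 in edgeR was reached by 1991 of all genes, in either direction. The snoRNP, NMD and TOP counts given here are to be read beside these shares. The median log2 fold change of the 18 snoRNP genes was 0.44. The most abundant of them were Ruvbl2, an ATPase that helps assemble C/D particles (0.48, SE 0.29), Nhp2, a core H/ACA protein (0.71, SE 0.37), and Nolc1, a nucleolar chaperone (0.40, SE 0.32). DESeq2 called 1, Ruvbl1, the partner of Ruvbl2, as lower, with 4.38 ± 3.53 CPM in homozygous mutants and 24.5 ± 10.1 CPM in wild-type mice, a gene picked out after its values had been seen. Of 20 NMD genes, 0 were called by edgeR, 1 was higher at an unadjusted p under 0.05 and DESeq2 called 1 (Magohb). The median was -0.07, and the abundant members Upf2 and Smg5 were at -0.26 (SE 0.32) and -0.44 (SE 0.27). Of 11 genes that regulate TOP mRNAs, 0 were called by edgeR, DESeq2 or limma-voom and 2 were lower at an unadjusted p under 0.05. The median was -0.16, with Larp1, which binds the TOP tract, at 0.04 (SE 0.32), and the mTOR pathway genes Tsc2 at -0.75 (SE 0.35) and Rptor at -0.84 (SE 0.39).

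**Figure D5:**
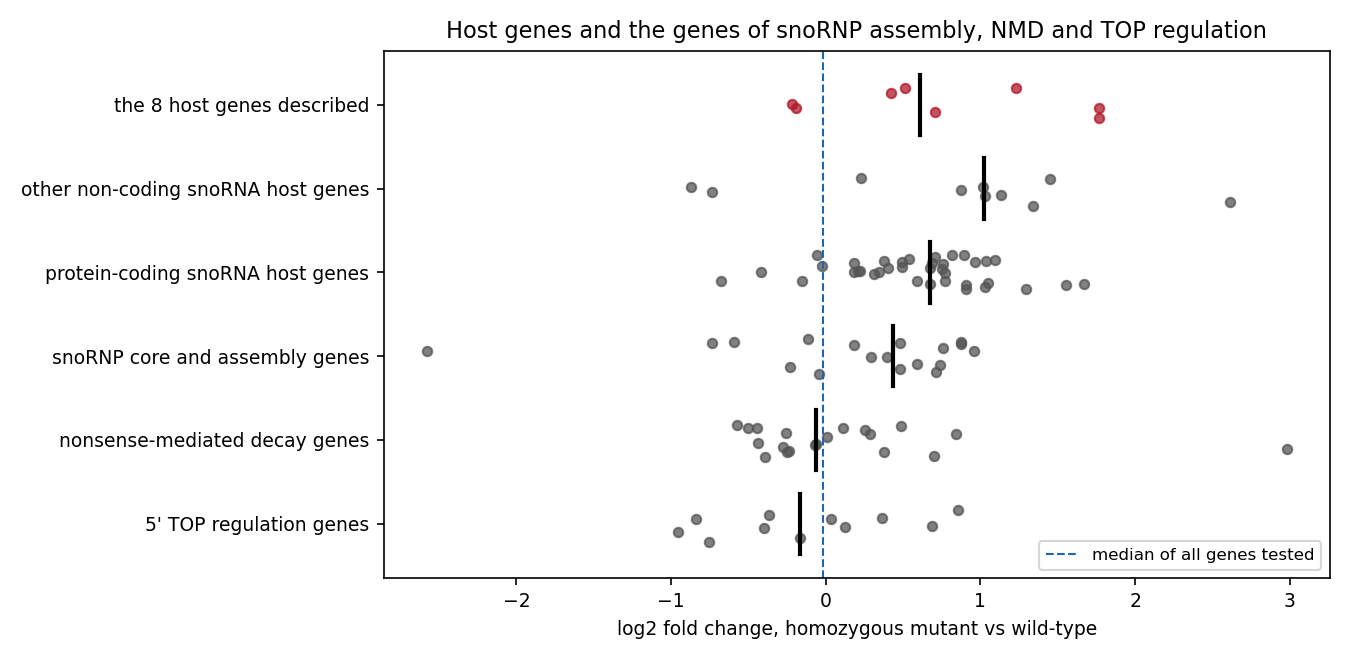
Log2 fold changes for homozygous mutants against wild-type of the 8 host genes (red), the other hosts and the genes of snoRNP assembly, NMD and TOP regulation (grey). Each point is a gene, black bars are list medians and the dashed line is the median of all 15184 genes tested (-0.02). The host lists have medians of 0.61, 1.02 and 0.68, and the NMD and TOP regulation lists have medians of -0.07 and -0.16.

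Over the 28 pairs of hosts, the Pearson correlation of log2 CPM across the 9 libraries had a median of 0.19, and 17 pairs were above 0. The median correlation of a host with all other genes tested, taken as the median over the 8, was 0.02. The highest was between Snhg1 and Snhg3 (0.77) and the lowest between Snhg8 and Snhg11 (-0.56). These are descriptions over 9 libraries (n = 9) that share the genotype differences given above. Among all other genes tested, those most like Gas5 over the 9 libraries were Dynlt3, a dynein light chain (r = 0.96), and Gadd45b, a stress-induced gene (r = 0.95). Snhg1 was most like Brk1, a subunit of the WAVE actin complex (r = 0.98), and Creb3l4 (r = 0.96), and Snhg8 was most like Rpl41, a ribosomal protein gene (r = 0.96), and Cst3, a secreted protease inhibitor (r = 0.96). The nearest genes were Srp54c and Inpp5k (r = 0.99 for both) for Snhg3, Tsen15 and Mb (r = 0.92 for both) for Snhg5, Pgap2 and Lsm3 (r = 0.98 for both) for Snhg6, Sprtn (r = 0.94) and Fntb (r = 0.93) for Snhg11, and Gm16124 (r = 0.98) and Fuca1 (r = 0.97) for Snhg12. At r of at least 0.9, Snhg5 had 4 such genes and Gas5 had 6, against 122 for Snhg12, 147 for Snhg3 and 174 for Snhg6. Snhg12 and Snhg3 were far lower in wild-type 59 than in any other library, and Snhg6 in homozygous mutant 46. A high r of these hosts can rest on that single library, and its weight was not tested.

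The miR-96 seed was also looked for in the hosts. The mature strand is shown with its seed (bases 2 to 8) in capitals.
mmu-miR-96-5p, chr6:30169506-30169528 (GRCm38.p6), minus strand: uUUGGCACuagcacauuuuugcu
GTGCCAA, the match to the wild-type seed on the transcript strand, was found in an annotated transcript of 1 of the 8 hosts (Snhg11), against 23.1% of 12015 tested genes with an exon length in the range of the hosts. GAGCCAA, the match to the Dmdo seed, was found in 2 of the 8 (Gas5 and Snhg11), against 27.5% of the same genes. In Gas5 it was in 1 of 25 annotated transcripts. The exon lengths of the hosts, 853 to 8521 bases, include retained introns, so these shares are not for genes of like transcript length. A letter match is not evidence of binding.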

How the data were processed

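RNA of sorted P1 HCs was sequenced in 9 libraries, 1 per mouse. The labels give the NEBNext Ultra Directional kit, a few nanograms of RNA and many PCR cycles, with no molecular identifiers named, so that reads are not independent molecules and errors from counting alone are too small. The authors aligned reads to GRCm38 with HISAT2 2.0.4 and deposited raw HTSeq counts per gene for each library, and the sources used here do not state the strand option. From these, CPM were counts divided by the library total. Genes with at least 20 reads in at least 2 of 3 libraries of any genotype were tested with edgeR 4.0.16 (TMM, robust quasi-likelihood fit to all 9 libraries, Benjamini-Hochberg adjustment) in R 4.3.3, with calls at an FDR of 10% and a fold change above 1.5. DESeq2 1.42.0 and limma 3.58.1 served as alternatives. Log2 CPM used a prior count of 2. All 43808 gene IDs matched GENCODE M21. The 8 genes and the lists were chosen with earlier results of these data known. All members were named, with up to 6 called genes of each other list or else its 3 with the highest mean CPM, and the 2 genes most like each member, and 1 gene that this rule names is not reported here. Each library is a separate mouse.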

Additional observations from a re-analysis of the deposited data

How the results depend on the processing

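No paired analysis was made, because the labels used here do not give the litter of each mouse. The paper describes the wild-type mice as littermate controls, so a pairing by litter may exist. The fold change of each of the 8 hosts was computed under 18 alternatives. Of 780 alternative values over all results, 702 stayed close to the main value. The fold change of a host counted as close within its within-genotype SD, even where its sign turned. Calls of single hosts were not part of this count. The number of genes called for homozygous mutants against wild-type was 175, and became 562 with no filter on low counts, 966 with DESeq2, 338 with limma-voom with quality weights, 110 with only the 2 genotypes compared, 23 without both homozygous mutant 46 and wild-type 59, 25 with a term for mouse numbers up to 47, and 20 to 697 with 1 library left out. For heterozygotes against wild-type it was 0, and became 3 with no filter, 45 with DESeq2, 1 with limma-voom, 1 with the mouse number term and 0 to 1 with 1 library left out. For homozygous mutants against heterozygotes it was 1, and became 69 with no filter, 147 with DESeq2, 151 with limma-voom, 2 with only the 2 genotypes compared, 0 without both libraries that stand apart, 0 with the mouse number term and 0 to 6 with 1 library left out. The cause was not tested. The median of the 8 hosts for homozygous mutants against wild-type was 0.40 to 0.98 with 1 library left out and 0.26 with the mouse number term. No host was called for heterozygotes against wild-type or homozygous mutants against heterozygotes under any of the 18 alternatives. Per kb of the median transcript without retained introns, chosen after the data had been seen, each of the 8 levels in wild-type mice moved by more than its SD. Low counts limit Snhg3, Snhg6 and Snhg12, whose lowest libraries held 5, 26 and 79 reads.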

Other observations

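Over the whole count tables, 1065 annotated snoRNA genes were listed and 13 passed the filter on low counts, 10 of these with 0 reads in at least 1 library. In edgeR, 0 of the 13 were called in any of the 3 contrasts, and DESeq2 and limma-voom also called 0. At an unadjusted p under 0.05, 2 were higher for homozygous mutants against wild-type, 2 for heterozygotes against wild-type and 0 for homozygous mutants against heterozygotes. Snord104, a C/D box snoRNA outside the 8 hosts, had the most even reads, with 641, 342 and 798 in homozygous mutants, against 428, 631 and 401 in heterozygotes and 279, 161 and 97 in wild-type mice. Its mean was 22.6 ± 3.52 CPM in homozygous mutants, 15.0 ± 3.71 CPM in heterozygotes and 7.68 ± 4.16 CPM in wild-type mice (SD, n = 3 each), and the homozygous mutant and wild-type libraries did not overlap (log2 fold change 1.48, SE 0.80, edgeR adjusted p = 0.444). Snord55 had 143, 83 and 12 reads in homozygous mutants, against 1, 7 and 83 in heterozygotes and 2, 1 and 1 in wild-type mice. Both snoRNAs were picked out after their values had been seen.

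Rcc1, which shares exon bases with Snhg3, had 32.2, 56.7 and 39.4 CPM in homozygous mutants, against 33.1, 21.2 and 27.8 CPM in heterozygotes and 40.9, 33.0 and 37.3 CPM in wild-type mice, so that it did not follow the low Snhg3 values of wild-type mice. Gm17300, antisense to Snhg3, was at 0 in all 9 libraries.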
